A study of Mus musculus with 6 samples.

Results

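Fatty acid oxidation was described here through 37 mouse genes, chosen by symbol as enzymes of the pathway and its regulator. They were 5 long-chain acyl-CoA synthetases, 10 acyl-CoA dehydrogenases, 7 enzymes of the later mitochondrial steps, 5 peroxisomal enzymes, 4 isomerases and reductases, 3 genes of electron transfer, 2 thioesterases and the regulator Ppara. They are 37 of the 19330 genes in the table of the series, and all 37 passed the filter on low counts and entered every test. RNA was sequenced from 2 palmitoylcarnitine induced pluripotent stem cell lines (PC iPSC 5 and 13), 2 control iPSC lines (3 and 7), 1 embryonic stem cell library (ESC) and 1 library of mouse embryonic fibroblasts (MEF). ESC and iPSC shared their culture, in serum medium with leukemia inhibitory factor on mitomycin C-treated fibroblast feeders, whereas MEF were grown in serum medium alone. The ESC library is titled B6 with the source name B6/blu, and no label states its strain. How much palmitoylcarnitine the lines met, when, and from which cells and by which method they were reprogrammed is not given in the sources used here. No label says that lines came from separate cultures or animals, so every p-value measures only the spread between these libraries.

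Palmitoylcarnitine is the carnitine ester in which palmitate is carried into mitochondria, where it is turned back into palmitoyl-CoA and enters beta-oxidation. In that cycle an acyl-CoA dehydrogenase chosen by chain length makes the first double bond, a hydratase and a hydroxyacyl-CoA dehydrogenase follow, and a thiolase releases acetyl-CoA. Electrons of the first step pass through the electron transfer flavoprotein to ubiquinone, and unsaturated chains need isomerases and reductases besides. Peroxisomes run a related cycle that starts with an oxidase and handles very long and branched chains. Pluripotent cells are known for active glycolysis, with fatty acid oxidation also studied in them.

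Each library held 26.51 M to 27.99 M assigned reads, and 16326 to 17463 genes had at least 1 read. The 37 genes took 0.192% and 0.180% of the reads in PC iPSC 5 and 13, 0.183% in each of control iPSC 3 and 7, 0.163% in ESC and 0.185% in MEF. The 8 pluripotency markers summed to 3709 to 4867 RPKM (reads divided by gene length and library size) in the iPSC lines, 4958 RPKM in ESC and 246 RPKM in MEF. The MEF library had 158 RPKM of Pou5f1 and 88.2 RPKM of Sox2, both defining genes of pluripotent cells, but 0.0482 RPKM of Nanog, and 4 of the 8 markers had no read there. The 15 fibroblast markers, all with reads in every library, summed to 1651 and 1369 RPKM in PC iPSC 5 and 13, 755 and 1479 RPKM in control iPSC 3 and 7, 471 RPKM in ESC and 7103 RPKM in MEF. The 6 macrophage markers summed to 12.9 to 18.4 RPKM in the iPSC lines, 68.5 RPKM in ESC and 635 RPKM in MEF, and the 4 adipocyte markers to at most 0.461 RPKM in any library. PC iPSC 5 stood apart on chromosome 11, where its 1046 genes had a median log2 difference of 0.46 from the other lines, against -0.04 to 0.04 on the other autosomes. The chromosome 11 median of ESC against those other lines was 0.39. Acadvl and Acsl6 are the members on chromosome 11. In bulk RNA a smaller number of cells of a type and less RNA per cell cannot be told apart.

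Of the 6 most abundant genes, 3 belonged to the later mitochondrial steps, 2 to electron transfer and 1 to the dehydrogenases. By mean RPKM over the 5 pluripotent libraries the order was Hadh, Hsd17b10, Etfb, Etfa, Acadm and Echs1. Hadh, the hydroxyacyl-CoA dehydrogenase for shorter chains, had 74.2 and 66.0 RPKM in PC iPSC 5 and 13, 83.2 and 69.2 RPKM in control iPSC 3 and 7, 81.0 RPKM in ESC and 40.8 RPKM in MEF. Hsd17b10, a dehydrogenase that also serves in mitochondrial tRNA processing, had 72.6 and 69.2 RPKM in the PC lines, 74.6 and 71.0 RPKM in the control lines, 70.3 RPKM in ESC and 35.2 RPKM in MEF. For both genes MEF lay below all 5 pluripotent libraries, and ESC lay within the range of the 4 iPSC lines.

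Etfb, the beta subunit of the electron transfer flavoprotein, had 85.7 and 65.7 RPKM in PC iPSC 5 and 13, 66.5 and 67.1 RPKM in control iPSC 3 and 7, 68.8 RPKM in ESC and 47.9 RPKM in MEF. Its partner Etfa had 65.7 and 65.6 RPKM in the PC lines, 66.8 and 70.0 RPKM in the control lines, 49.0 RPKM in ESC and 56.0 RPKM in MEF. For Etfb, PC iPSC 5 was the highest library and MEF the lowest, whereas for Etfa ESC was the lowest. The RPKM ratio of Etfa to Etfb was 0.767 to 1.04 in the iPSC lines, 0.712 in ESC and 1.17 in MEF. Acadm, the medium-chain acyl-CoA dehydrogenase, had 66.0 and 62.4 RPKM in the PC lines, 64.4 and 64.0 RPKM in the control lines, 40.0 RPKM in ESC and 34.2 RPKM in MEF. Echs1, the short-chain enoyl-CoA hydratase, had 49.2 and 50.3 RPKM in the PC lines, 55.6 and 50.9 RPKM in the control lines, 51.0 RPKM in ESC and 29.8 RPKM in MEF. Among the 5 pluripotent libraries Acadm separated the iPSC lines from ESC, while Echs1 did not. Neighbours among the first 5 genes of that order had overlapping ranges over the 4 iPSC lines, so their order is not resolved.

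Summed over each class, the 7 later mitochondrial enzymes made up the largest amount, with 315.5 and 306.4 RPKM in PC iPSC 5 and 13, 333.2 and 311.4 RPKM in control iPSC 3 and 7, 279.1 RPKM in ESC and 253.2 RPKM in MEF. The 5 straight-chain dehydrogenases summed to 195.2 and 170.0 RPKM in the PC lines, 169.8 and 171.2 RPKM in the control lines, 144.5 RPKM in ESC and 150.6 RPKM in MEF. The 5 peroxisomal genes summed to 76.5 and 72.8 RPKM in the PC lines, 72.7 and 72.8 RPKM in the control lines, 65.5 RPKM in ESC and 91.4 RPKM in MEF. All 37 together came to 958.2 and 892.1 RPKM in the PC lines, 907.6 and 901.2 RPKM in the control lines, 810.8 RPKM in ESC and 826.3 RPKM in MEF. The iPSC lines were thus the highest libraries for the total, and MEF was the highest for the peroxisomal sum. Acaa1a, Hsd17b4 and Acox3 were highest in MEF, whereas Acaa1b and Ehhadh were lowest there. At the low end, Ppara, the nuclear receptor that switches on many of these genes in liver, had 0.0532 and 0.0988 RPKM in PC iPSC 5 and 13, 0.0729 and 0.0759 RPKM in control iPSC 3 and 7, 0.00961 RPKM in ESC and 0.129 RPKM in MEF. Those levels rest on 11, 20, 15, 15, 2 and 27 reads in that order of libraries. No member had 0 reads in any library.

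The median coefficient of variation over the 4 iPSC lines was 8.57% for the 37 genes. Of the 37, 24 averaged at least 10 RPKM in the lines, and their median was 7.1%, beside 8.81% for all 6400 genes at that level. PC iPSC 5 was the line farthest from the rest for 16 members, as the highest in 13 and the lowest in 3. That count was not made over all genes, so it does not set the members apart. The line also stood out in the whole table. Of 14875 genes with a mean of at least 10 reads a line, 1014 were past the critical value of Dixon's test for an outlying line. PC iPSC 5 was the line in 571 of those genes, and in all 5 members past that value.

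**Figure D1:**
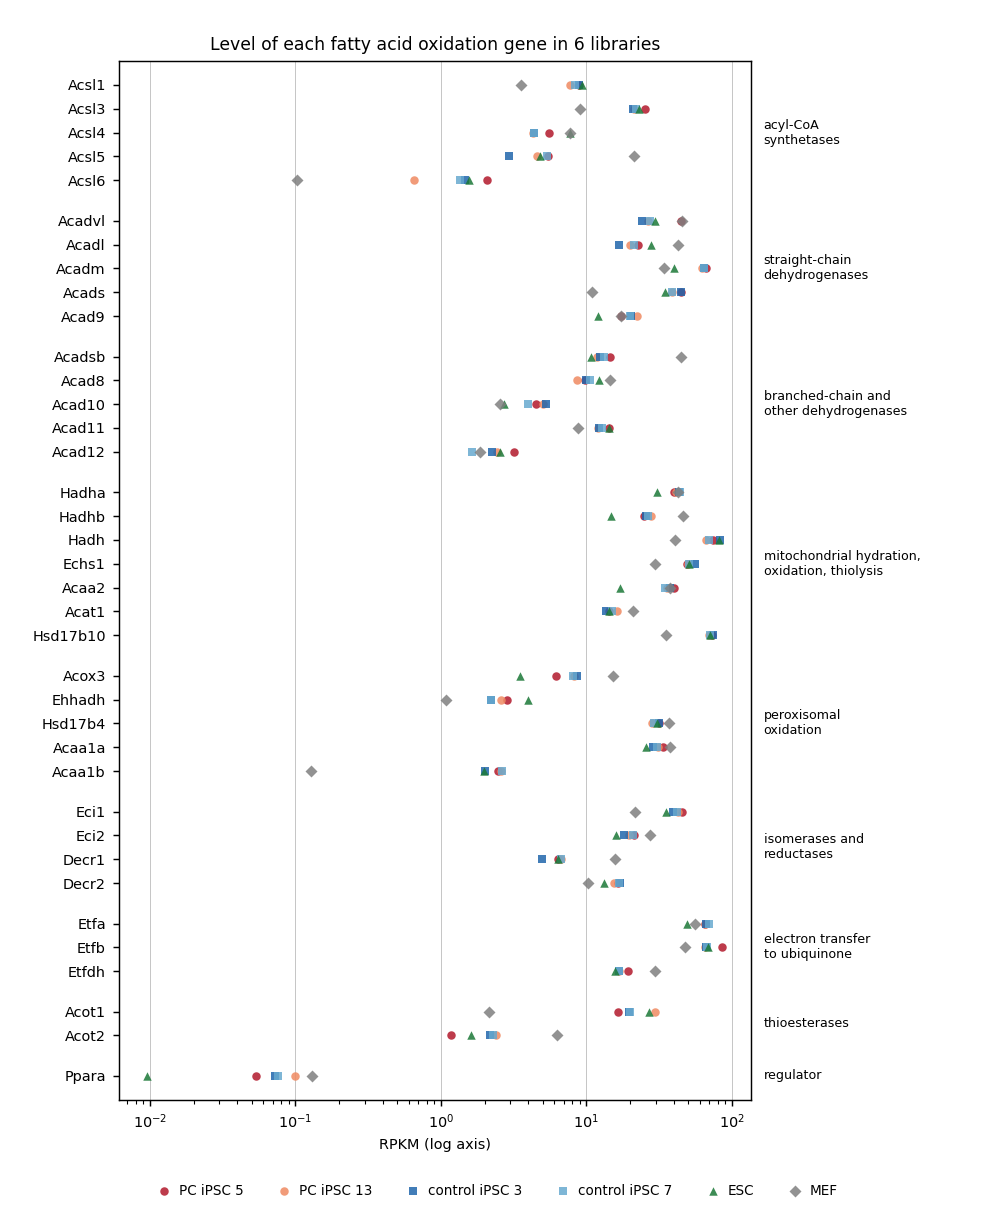
RPKM of the 37 genes on a log axis, 1 point per library, with genes in rows grouped by role. The 4 iPSC lines lie close together for most genes, while MEF (grey diamonds) lies outside their range for 34 genes, including Acsl6, Acaa1b and Acot1 far below it.

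Some members share sequence or exons with other genes, and whether counting used strand is not stated in any label, so their levels carry that uncertainty. Of the distinct 50-base stretches of Acaa1b, 35.5% also occur in Acaa1a, its peroxisomal thiolase copy. For Acot1, 23.5% occur in Acot2 and 31.8% in any gene of its family, and for Acad10, 20.2% occur in Acad12. The 5 Acsl genes shared none. Exons of 11 members overlap exons of another gene, on the opposite strand for 8 of them, and the longest overlap is 976 bases between Acadvl and Dvl2. Acox3 shares 700 bases with the antisense gene 4931431C16Rik, whose level was 0.0523 to 0.121 RPKM in all 6 libraries. Etfb shares 617 bases with Gm45233 on its own strand.

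The first comparison asks whether iPSC associated with palmitoylcarnitine express the oxidation genes differently from control iPSC. No member passed the test: edgeR's quasi-likelihood test called 0 of the 37 genes at an adjusted p under 0.05, beside 0% of the 16435 genes tested. At an unadjusted p under 0.05 the count was also 0 of 37, against 2.34% of all genes, and DESeq2 called 0 of 37 with 0 at an unadjusted p under 0.05. The estimated log2 differences ran from -0.34 to 0.50 with a median of 0.02, where the median of all genes was 0, and 21 were positive and 16 negative. The PC and control lines did not overlap for 10 members, 5 with the PC lines above and 5 below, which is 10 of 37 beside 31.4% of all genes.

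The 6 largest differences came from 5 classes. Acad12, an acyl-CoA dehydrogenase family member, had 3.19 and 2.42 RPKM in PC iPSC 5 and 13, against 2.26 and 1.64 RPKM in control iPSC 3 and 7. Both PC lines lay above both control lines, with a log2 difference of 0.50 (SE 0.29, adjusted p = 0.963). Acadvl, the very-long-chain dehydrogenase that takes the first step on palmitoyl-CoA, had 44.7 and 26.4 RPKM in PC iPSC 5 and 13, against 24.1 and 27.4 RPKM in control iPSC 3 and 7. Only PC iPSC 5 was high, the log2 difference was 0.44 (SE 0.23, adjusted p = 0.963), and it was 0.05 without PC iPSC 5. Acadvl lies on chromosome 11, whose genes as a whole were higher in that line, and its opposite-strand neighbour Dvl2 had 37.5 and 23.8 RPKM in PC iPSC 5 and 13, against 30.2 and 25.5 RPKM in control iPSC 3 and 7. The part of either in the Acadvl level was not tested.

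Acot2, a mitochondrial thioesterase that releases fatty acids from acyl-CoA, had 1.17 and 2.38 RPKM in PC iPSC 5 and 13, against 2.19 and 2.27 RPKM in control iPSC 3 and 7. PC iPSC 5 was the low library, and the log2 difference of -0.34 (SE 0.38) became 0.10 without it. Ehhadh, the peroxisomal bifunctional enzyme, had 2.83 and 2.58 RPKM in the PC lines, against 2.23 and 2.21 RPKM in the control lines, without overlap (log2 difference 0.26, SE 0.22). Acsl5, an acyl-CoA synthetase known from the intestine, had 5.47 and 4.57 RPKM in the PC lines, against 2.92 and 5.33 RPKM in the control lines. Control iPSC 3 was the low library there, and the log2 difference of 0.26 (SE 0.29) became -0.10 without it. Control iPSC 3 also had the lowest fibroblast marker sum of the lines, and Acsl5 was higher in MEF than in any other library, but the part of fibroblast RNA was not tested. Acox3, a peroxisomal oxidase for branched-chain acyl-CoA, had 6.17 and 8.18 RPKM in the PC lines, against 8.59 and 8.13 RPKM in the control lines, with a log2 difference of -0.24 (SE 0.18) that became -0.02 without PC iPSC 5. Each of these 4 differences had an adjusted p of 0.963 in edgeR's test, so none of the 6 passed it.

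These data bound the differences more tightly for abundant genes. The 95% interval of the PC over control ratio lay within 2-fold in either direction for 33 of the 37 genes. The exceptions were Acsl6, Acad12, Acot2 and Ppara. From the estimate to either end, the interval spanned a median factor of 1.25 for the 24 genes of at least 10 RPKM, 1.43 for the 12 genes of 1 to 10 RPKM and 2.95 for Ppara. For Acadm, whose lines held 3494 to 3771 reads, the log2 difference was -0.02 with an interval of -0.31 to 0.26, and for the trifunctional subunits it was -0.12 (-0.41 to 0.18) for Hadha and -0.01 (-0.34 to 0.32) for Hadhb.

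**Figure D2:**
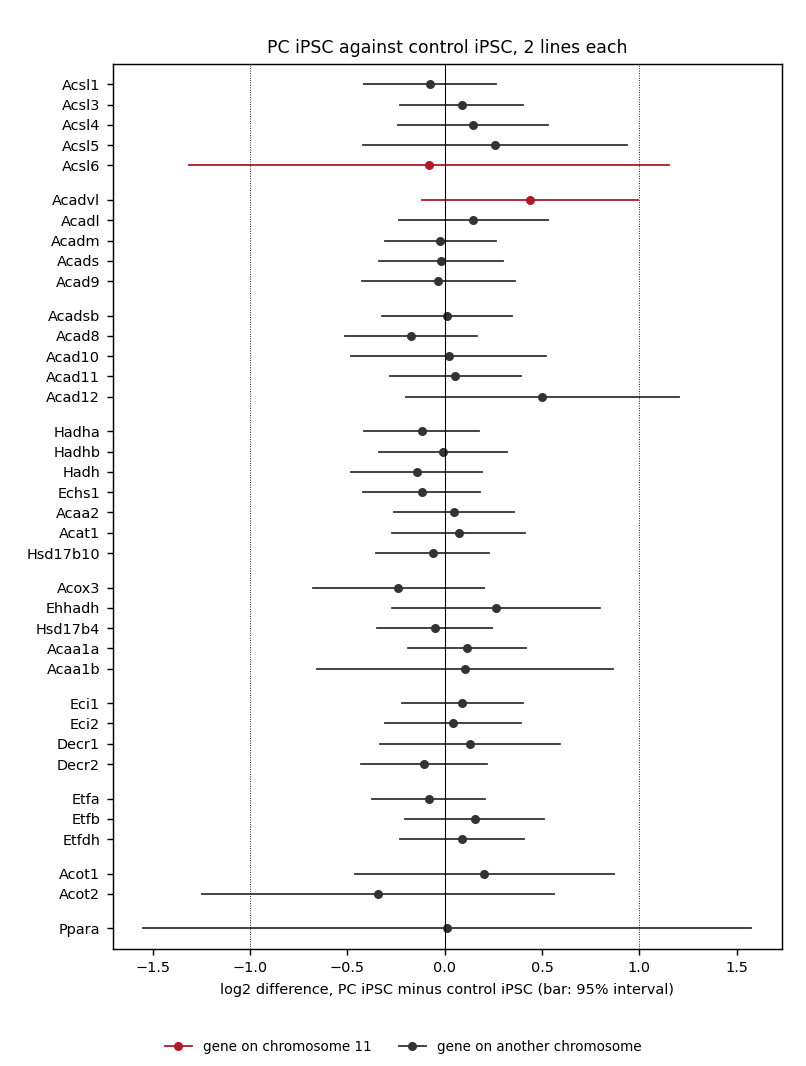
Log2 difference of PC iPSC minus control iPSC for each gene (points) with its 95% interval (bars), from edgeR with 2 lines a group, and dotted lines at a 2-fold difference. Every interval includes 0, the widest belong to Ppara and Acsl6, and the chromosome 11 genes Acadvl and Acsl6 are in red.

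The 4 iPSC lines were set against ESC to ask how close these genes are to their level in embryonic stem cells. Of the 37 genes, 4 were higher and 1 was lower in iPSC, which is 13.5% called beside 10.4% of all genes, and the direction shares of all genes were 4.72% higher and 5.72% lower. The 4 higher genes were Acox3 of the peroxisome, the thiolase Acaa2, the trifunctional beta subunit Hadhb and the dehydrogenase Acadm. The lower gene was Acsl4, an acyl-CoA synthetase that prefers arachidonic acid. At an unadjusted p under 0.05 the count was 13 of 37, beside 29.8%. The median log2 difference of the 37 was 0.01, beside 0.03 for all genes.

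The promoters of 4 of the 5 called genes are shown, so that members that passed the test can be compared, and that of Acaa2 is not shown. Each is 250 bases before to 50 bases after the start site listed for the promoter, read 5′ to 3′ on the gene's own strand. The windows are from RefSeq on GRCm38.p6, and capitals mark the GC box GGGCGG on either strand. For Hadhb and Acadm that site is the first base of the gene. The Acox3 gene begins at 35582981 and the minus-strand Acsl4 gene at 142390802, so their listed sites lie inside the gene. The Acox3 window is chr5:35582784-35583083 on the plus strand, the Hadhb window chr5:30155003-30155302 on the plus strand, the Acadm window chr3:153944594-153944893 on the minus strand and the Acsl4 window chrX:142390486-142390785 on the minus strand.
Acox3: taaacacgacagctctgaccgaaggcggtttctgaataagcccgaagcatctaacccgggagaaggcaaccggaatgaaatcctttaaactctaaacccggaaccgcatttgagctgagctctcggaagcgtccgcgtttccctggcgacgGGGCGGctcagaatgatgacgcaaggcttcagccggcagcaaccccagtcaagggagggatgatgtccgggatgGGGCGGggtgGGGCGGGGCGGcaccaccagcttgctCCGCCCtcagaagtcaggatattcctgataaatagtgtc
Hadhb: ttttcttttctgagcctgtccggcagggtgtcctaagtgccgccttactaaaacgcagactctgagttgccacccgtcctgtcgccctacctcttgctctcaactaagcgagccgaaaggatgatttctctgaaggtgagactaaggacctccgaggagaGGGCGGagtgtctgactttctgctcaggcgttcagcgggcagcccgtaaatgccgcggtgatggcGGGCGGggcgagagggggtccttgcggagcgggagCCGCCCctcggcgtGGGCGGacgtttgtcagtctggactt
Acadm: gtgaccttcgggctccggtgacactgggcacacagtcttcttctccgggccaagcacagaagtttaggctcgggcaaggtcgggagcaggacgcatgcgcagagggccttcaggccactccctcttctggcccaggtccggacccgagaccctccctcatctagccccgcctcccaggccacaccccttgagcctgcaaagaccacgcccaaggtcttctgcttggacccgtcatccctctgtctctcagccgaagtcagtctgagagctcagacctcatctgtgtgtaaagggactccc
Acsl4: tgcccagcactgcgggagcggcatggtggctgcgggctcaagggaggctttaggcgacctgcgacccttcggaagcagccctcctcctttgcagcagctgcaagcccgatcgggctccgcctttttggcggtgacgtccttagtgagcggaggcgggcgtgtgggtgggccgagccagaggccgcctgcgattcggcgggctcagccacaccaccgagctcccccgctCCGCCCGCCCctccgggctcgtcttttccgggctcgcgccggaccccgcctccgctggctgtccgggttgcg
The windows hold 58% G and C with 22 CpG in Acox3, 60.7% with 24 CpG in Hadhb, 62.3% with 13 CpG in Acadm and 71.7% with 33 CpG in Acsl4. The Acadm window holds none of the motifs searched.

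Promoter windows were found for 32 of the 37 genes, 35 windows in all, and they were rich in G and C, with a median of 60.7% and 17 CpG, beside 52.7% and 7 CpG over all 32851 windows. GGGCGG occurred on either strand in 26 of the 35 windows, which belong to 24 of the 32 genes, beside 35.7% of all windows. The CCAAT-box letters ATTGG occurred in 18 of the 35 windows, of 17 genes, beside 37.4% of all windows. GCGCA followed by TGCGC, the palindrome bound by nuclear respiratory factor, occurred in 4 of the 35 windows, beside 0.971%. They belong to Acad10, Acad12, Etfdh and Ppara. TCAAGGTCA, the letters of estrogen-related receptors, occurred in 1 of the 35 windows, a window of Acsl6, beside 0.423% of all windows. The repeat of AGGTCA with 1 base between the copies, the form bound by PPAR with RXR, occurred in none of the 35 windows, beside 0.0396%. The motifs were searched on both strands, and a match is a run of letters in this window only.

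Acox3 had 6.17 and 8.18 RPKM in PC iPSC 5 and 13 and 8.59 and 8.13 RPKM in control iPSC 3 and 7, against 3.50 RPKM in ESC, and MEF had 15.3 RPKM. Every iPSC line lay above ESC, and the log2 difference was 1.11 (SE 0.22, adjusted p = 0.0316, edgeR). Acaa2, a mitochondrial thiolase, had 40.1 and 35.6 RPKM in the PC lines and 37.4 and 34.7 RPKM in the control lines. It had 17.1 RPKM in ESC and 37.8 RPKM in MEF. All 4 lines lay above ESC and MEF lay among them, with a log2 difference of 1.07 (SE 0.16, adjusted p = 0.0168). Acadm, with its levels given above, was higher in iPSC than in ESC by 0.64 (SE 0.14, adjusted p = 0.037), and its MEF level was lower still.

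Acsl4 had 5.54 and 4.28 RPKM in PC iPSC 5 and 13 and 4.38 and 4.34 RPKM in control iPSC 3 and 7, against 7.69 RPKM in ESC, and MEF had 7.73 RPKM. All 4 lines lay below ESC, PC iPSC 5 the nearest to it, with a log2 difference of -0.78 (SE 0.17, adjusted p = 0.0376). Acsl4 and Hsd17b10 are the members on the X chromosome, and Hsd17b10 differed from ESC by -0.01 (SE 0.14, adjusted p = 0.983). The part of the X chromosome in the Acsl4 difference was not tested.

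Hadha and Hadhb encode the alpha and beta subunits of the mitochondrial trifunctional protein, which carries out hydration, dehydrogenation and thiolysis of long chains. Hadhb had 24.7 and 27.9 RPKM in PC iPSC 5 and 13 and 25.8 and 26.4 RPKM in control iPSC 3 and 7, against 14.8 RPKM in ESC and 46.3 RPKM in MEF. Hadha had 40.3 and 41.3 RPKM in the PC lines and 43.1 and 44.2 RPKM in the control lines, against 30.5 RPKM in ESC and 42.4 RPKM in MEF. From high to low the order was MEF, iPSC, ESC for Hadhb, whereas for Hadha only ESC stood below. The log2 difference from ESC was 0.79 (SE 0.16, adjusted p = 0.0331) for Hadhb and 0.43 (SE 0.14, adjusted p = 0.106) for Hadha. The ratio of Hadha to Hadhb in RPKM was 1.63 and 1.48 in PC iPSC 5 and 13, 1.67 in each of control iPSC 3 and 7, 2.07 in ESC and 0.914 in MEF. The genes stand head to head on chromosome 5, Hadha from 30119423 to 30154980 on the minus strand and Hadhb from 30155253 to 30184593 on the plus strand. Only 272 bases lie between their starts, so their promoter windows overlap.

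The other 32 members did not pass the test against ESC. Acad9, a complex I assembly factor of the dehydrogenase family, had 17.4 and 22.3 RPKM in PC iPSC 5 and 13 and 20.1 and 19.9 RPKM in control iPSC 3 and 7, against 12.1 RPKM in ESC. ESC was its lowest library, with a log2 difference of 0.68 (SE 0.19, adjusted p = 0.0708). The next nearest were Ehhadh at -0.73 (SE 0.24, adjusted p = 0.0976), Acad10 at 0.76 (SE 0.25, adjusted p = 0.102), Hadha, given above, and Acadl, the long-chain dehydrogenase, at -0.52 (SE 0.17, adjusted p = 0.106). Acadl had 22.8 and 19.9 RPKM in the PC lines and 16.8 and 21.1 RPKM in the control lines, against 28 RPKM in ESC. With Acadm and Acadl differing in opposite directions, the Acadl to Acadm ratio was 0.346 and 0.319 in the PC lines and 0.260 and 0.330 in the control lines, against 0.698 in ESC, and it was 1.25 in MEF. Ppara had 61 reads over the 4 lines, against 2 reads in ESC, a ratio of 7.59 with a 95% counting interval of 2.01 to 64.1. That interval leaves out the spread between lines, and in edgeR's test the log2 difference of Ppara was 2.86 (SE 1.05, adjusted p = 0.126). By order alone, ESC lay outside the 4 lines for 22 of the 37 genes, below them for 17 and above for 5, beside 66.5% of all genes.

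The fibroblast marker sum given above was higher in every iPSC line than in ESC. Acox3 and Hadhb were higher still in MEF, Acaa2 in MEF lay among the iPSC lines, and Acadm in MEF lay below ESC. The part of fibroblast RNA in these 5 differences was not tested. A limma fit on log2(RPKM + 1) called 0 of the 37 genes and 11 genes of the whole table. Its adjusted p lay between 0.0604 and 0.121 for the 5 named. At an unadjusted p under 0.05 it had 12 of 37, beside 4725 of all 16435 genes. Leaving out any 1 of the 4 lines added Acad9 to the genes called by edgeR, for 6 of 37, and leaving out control iPSC 7 added Acad10 and Acadl as well, for 8 of 37. Acad9 was also called by DESeq2 and with the 4 lines as 1 group.

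**Figure D3:**
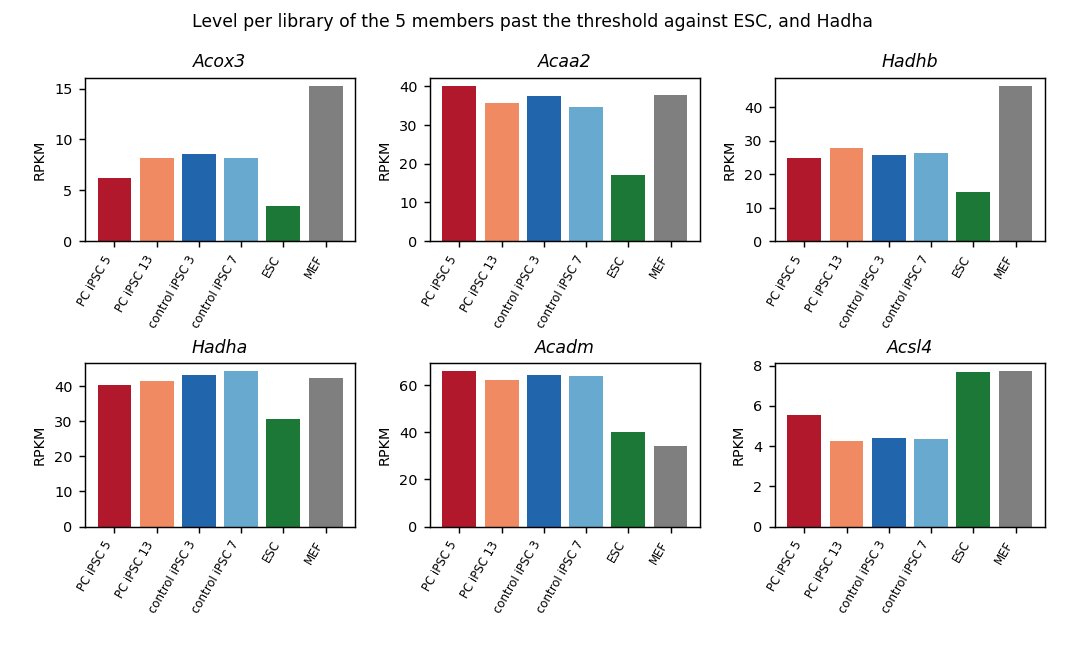
RPKM of Hadha and of the 5 genes that differed between iPSC and ESC, 1 bar per library, PC iPSC first and MEF last. Acox3, Acaa2, Hadhb and Acadm are higher in all 4 iPSC lines than in ESC, Acsl4 is lower, and Hadha, shown as the partner of Hadhb, has ESC as its lowest library at 30.5 RPKM without passing the test.

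Against MEF, 28 of the 37 genes differed, 16 higher and 12 lower in the 4 iPSC lines. That is 75.7% called beside 68.1% of all genes, with 36.5% of all genes higher and 31.6% lower. The count at an unadjusted p under 0.05 was also 28 of 37, beside 71.3%. The median log2 difference of the 37 was 0.23 and that of all genes 0.16. Genes called higher and genes called lower stood in each of the 8 classes of enzymes, such as 3 of 5 synthetases higher and 2 lower, or 2 of 4 isomerases and reductases higher and 2 lower. MEF lay outside the range of the lines for 34 of 37 genes, beside 89% of all genes. The macrophage marker sum was also higher in MEF than in every iPSC line. The MEF library also had 158 RPKM of Pou5f1 and 88.2 RPKM of Sox2, with 0.0482 RPKM of Nanog. What either adds to these differences was not tested.

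Among the synthetases, which activate fatty acids to acyl-CoA, Acsl6, known from brain, had 2.09 and 0.652 RPKM in PC iPSC 5 and 13 and 1.47 and 1.36 RPKM in control iPSC 3 and 7, against 0.103 RPKM in MEF. The MEF value rests on 8 reads, and the log2 difference was 3.75 (SE 0.84, adjusted p = 0.00665). Acsl3, a synthetase of lipid droplets and endoplasmic reticulum, had 25.1 and 21.2 RPKM in the PC lines and 20.8 and 22 RPKM in the control lines, against 9.05 RPKM in MEF (log2 difference 1.32, SE 0.16, adjusted p = 0.000451). Acsl1, the main form of muscle and fat, had 8.87 and 7.71 RPKM in the PC lines and 8.89 and 8.32 RPKM in the control lines, against 3.58 RPKM in MEF, a log2 difference of 1.26 (SE 0.18, adjusted p = 0.000759). For these 3 genes MEF was the lowest library. The order was turned round for Acsl5, with 5.47 and 4.57 RPKM in the PC lines and 2.92 and 5.33 RPKM in the control lines, against 21.1 RPKM in MEF (log2 difference -2.19, SE 0.28, adjusted p = 0.000484). Acsl4 was also lower in iPSC than in MEF, with a log2 difference of -0.72 (SE 0.17, adjusted p = 0.00855). The 5 synthetases nevertheless summed to 47.1 and 38.4 RPKM in the PC lines and 38.5 and 41.3 RPKM in the control lines, against 41.5 RPKM in MEF, so the lines lay on both sides of the MEF sum.

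The straight-chain dehydrogenases did not move together. Acads, for short chains, had 44.3 and 39.0 RPKM in PC iPSC 5 and 13 and 44.4 and 38.9 RPKM in control iPSC 3 and 7, against 11 RPKM in MEF, with a log2 difference of 1.95 (SE 0.17, adjusted p = 0.000107). Acadm, for medium chains, was higher by 0.93 (SE 0.14, adjusted p = 0.00117). Acadl, for long chains, was at 42.9 RPKM in MEF, above every line, with a log2 difference of -1.07 (SE 0.17, adjusted p = 0.00127). Acadvl, for very long chains, had a MEF level of 45.2 RPKM, beside which PC iPSC 5 was close and the other 3 lines were lower, and it did not pass the test (-0.56, SE 0.25, adjusted p = 0.083). Acadvl passed in 6 of 9 alternative fits, among them the 4 that left out 1 iPSC line each.

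The next class held branched-chain and other acyl-CoA dehydrogenases. Acadsb, which acts on a product of isoleucine, had 14.4 and 11.9 RPKM in PC iPSC 5 and 13 and 12.3 and 13.3 RPKM in control iPSC 3 and 7, against 44.9 RPKM in MEF. Every line lay far below MEF, with a log2 difference of -1.77 (SE 0.14, adjusted p = 6.48e-05). Acad8, its counterpart for valine, had 9.85 and 8.60 RPKM in the PC lines and 9.91 and 10.5 RPKM in the control lines, against 14.6 RPKM in MEF (log2 difference -0.57, SE 0.15, adjusted p = 0.0145). Acad10 had 4.52 and 5 RPKM in the PC lines and 5.29 and 3.97 RPKM in the control lines, against 2.56 RPKM in MEF (log2 difference 0.90, SE 0.25, adjusted p = 0.0169). Acad11 was also higher, by 0.57 (SE 0.16, adjusted p = 0.0192), and lost the call with DESeq2. Acadsb and Acad8 were thus lower in iPSC, and Acad10 and Acad11 higher.

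Of the later mitochondrial enzymes, Hsd17b10 was higher in iPSC than in MEF by 1.05 (SE 0.15, adjusted p = 0.000768), Hadh by 0.86 (SE 0.17, adjusted p = 0.00354) and Echs1 by 0.81 (SE 0.15, adjusted p = 0.00267), each with all 4 lines above MEF. Hadhb was lower, at -0.80 (SE 0.15, adjusted p = 0.00259), while Hadha (0.02, SE 0.14) and Acaa2 (-0.01, SE 0.15) did not pass, at adjusted p of 0.918 and 0.958. Acat1, which joins or splits acetoacetyl-CoA, had 14.3 and 16.1 RPKM in PC iPSC 5 and 13 and 13.6 and 15.0 RPKM in control iPSC 3 and 7, against 20.9 RPKM in MEF. Its log2 difference was -0.48 (SE 0.16, adjusted p = 0.029).

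The peroxisomal genes held the largest contrast among the 37 genes. Acaa1b, the less abundant copy of peroxisomal thiolase, had 2.46 and 2.60 RPKM in PC iPSC 5 and 13 and 2.00 and 2.64 RPKM in control iPSC 3 and 7, against 0.128 RPKM in MEF, where it had 6 reads. The log2 difference was 4.23 (SE 0.54, adjusted p = 0.000527). Its copy Acaa1a had 33.7 and 31.2 RPKM in the PC lines and 28.5 and 30.4 RPKM in the control lines, against 37.7 RPKM in MEF, and did not pass (-0.27, SE 0.14, adjusted p = 0.129). The Acaa1a to Acaa1b ratio was 11.5 to 14.3 in the iPSC lines and 13 in ESC, against 294 in MEF. Ehhadh was at 1.08 RPKM in MEF, below all 4 lines, with a log2 difference of 1.20 (SE 0.28, adjusted p = 0.00746). Acox3 was higher in MEF than in any line, with a log2 difference of -0.96 (SE 0.19, adjusted p = 0.00399). Hsd17b4, the other peroxisomal bifunctional enzyme, did not pass (-0.28, SE 0.14, adjusted p = 0.103).

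The isomerases and reductases prepare unsaturated chains for the cycle. Eci1 had 45.4 and 42.7 RPKM in PC iPSC 5 and 13 and 39.6 and 41.7 RPKM in control iPSC 3 and 7, against 21.6 RPKM in MEF (log2 difference 0.99, SE 0.16, adjusted p = 0.00136). Eci2 had 21.1 and 19.7 RPKM in the PC lines and 18.1 and 21.0 RPKM in the control lines, against 27.5 RPKM in MEF. The second isomerase thus ran the other way, with a log2 difference of -0.44 (SE 0.16, adjusted p = 0.0439) that no longer passed without PC iPSC 13 (-0.43) or without control iPSC 3 (-0.41). Decr1, the mitochondrial dienoyl-CoA reductase, had 6.33 and 6.65 RPKM in the PC lines and 4.96 and 6.72 RPKM in the control lines, against 15.8 RPKM in MEF (log2 difference -1.34, SE 0.20, adjusted p = 0.000948). Its peroxisomal counterpart Decr2 was higher in iPSC by 0.70 (SE 0.16, adjusted p = 0.00698).

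In electron transfer, Etfdh, the enzyme that hands the electrons to ubiquinone, had 19.3 and 16.7 RPKM in PC iPSC 5 and 13 and 16.6 and 16.7 RPKM in control iPSC 3 and 7, against 29.4 RPKM in MEF (log2 difference -0.74, SE 0.14, adjusted p = 0.00326). Etfb was higher in iPSC by 0.59 (SE 0.18, adjusted p = 0.0211), and Etfa did not pass (0.28, SE 0.14, adjusted p = 0.111).

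The thioesterases Acot1 and Acot2 are neighbours on chromosome 12, at 84009502 to 84017670 and 83987861 to 83993877, one made for the cytosol and the other for mitochondria. Acot1 had 16.5 and 29.6 RPKM in PC iPSC 5 and 13 and 19.8 and 19.9 RPKM in control iPSC 3 and 7, against 2.15 RPKM in MEF (log2 difference 3.34, SE 0.41, adjusted p = 0.000445). For Acot2 the MEF level of 6.26 RPKM was instead above the lines, which held 1.17 and 2.38 RPKM (PC) and 2.19 and 2.27 RPKM (control), and the log2 difference was -1.63 (SE 0.38, adjusted p = 0.00746). The Acot1 to Acot2 ratio was 8.78 to 14.1 in the iPSC lines and 16.8 in ESC, against 0.344 in MEF. The counts are headed as unique reads, and how reads from the stretches that the copies share were handled is not stated. Ppara did not pass between iPSC and MEF (-0.75, SE 0.68, adjusted p = 0.348).

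The call of Acsl6 was lost with limma on log2(RPKM + 1), at 1.08 with an adjusted p of 0.061. With DESeq2's size factors in edgeR the median difference of all genes from MEF was 0.07 instead of 0.16, and Hsd17b4 and Acadvl were added to the lower genes.

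**Figure D4:**
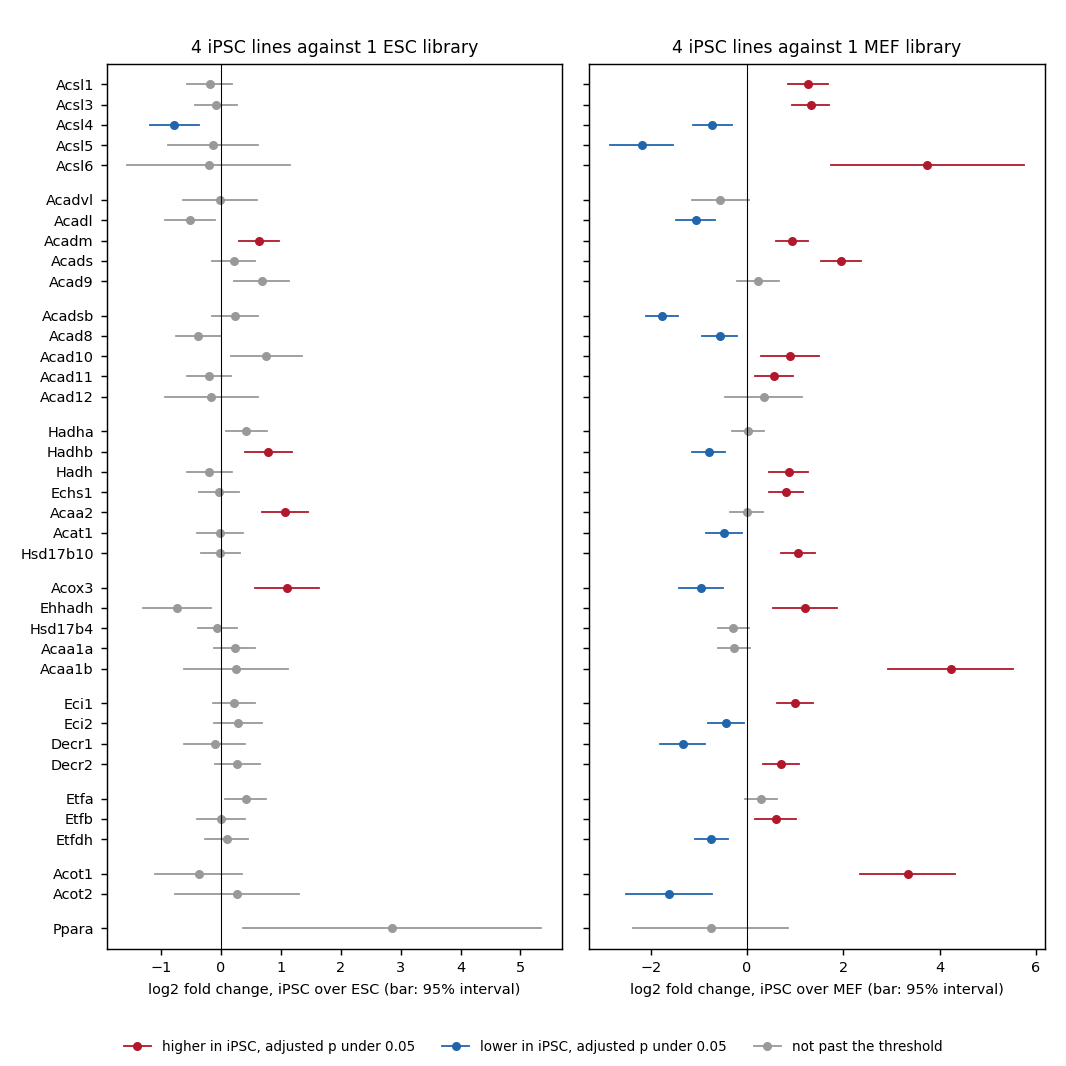
Log2 fold change of each gene with its 95% interval from edgeR, the 4 iPSC lines over the single ESC library on the left and over the single MEF library on the right. Red points are higher in iPSC (4 against ESC, 16 against MEF), blue points are lower (1 against ESC, 12 against MEF) and grey points did not pass the threshold.

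ESC and MEF are 1 library each, so the difference between them has no replicate check and no test. ESC was at least 2-fold higher for 9 of the 37 genes and at least 2-fold lower for 8, beside 33.3% and 27.2% of all genes, and 20 lay between. The ESC to MEF ratio was 16.1 for Acaa1b, 15.7 for Acsl6, 13.1 for Acot1, 3.82 for Ehhadh, 3.32 for Acads, 2.73 for Acsl1, 2.65 for Acsl3, 2.09 for Hsd17b10 and 2.07 for Hadh. They include 3 of the 5 synthetases. On the lower side ESC had 3.50 RPKM of Acox3 against 15.3 RPKM in MEF, and the MEF to ESC ratio was 4.18 for Acox3 and Acsl5, 4 for Acadsb, 3.74 for Acot2, 3.01 for Hadhb, 2.36 for Decr1, 2.11 for Acaa2 and 12.9 for Ppara. The Ppara ratio rests on 2 reads in ESC and 27 in MEF and has a 95% counting interval of 3.24 to 112. The comparisons of iPSC with MEF and of ESC with MEF share the MEF library.

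Around the 37 genes, 74 further genes of fatty acid handling were followed in 6 lists, of which 67 were tested. None passed between PC and control iPSC, with 2 of 67 at an unadjusted p under 0.05 and 0 of the 8 carnitine shuttle genes. Against ESC 5 of 67 were lower in iPSC and 0 higher, beside 5.72% and 4.72% of all genes. They were Crat, the mitochondrial carnitine acetyltransferase, at -0.70 (adjusted p = 0.0409), Acot13, a thioesterase, at -1.05 (adjusted p = 0.0294), Fabp3, the heart fatty acid binding protein, at -1.17 (adjusted p = 0.0369), Acss1, a mitochondrial acetyl-CoA synthetase, at -1.47 (adjusted p = 0.0326), and Sirt3, the mitochondrial deacetylase, at -1.16 (adjusted p = 0.0152). Against MEF 24 of 67 were higher and 20 lower, beside 36.5% and 31.6% of all genes. By list, 7 of 19 uptake genes and other synthetases were higher and 9 lower, 3 of 9 other peroxisomal genes were higher and 4 lower, and 5 of 9 other thioesterases were higher and 1 lower. Of the ketone body and propionyl-CoA enzymes 3 of 8 were higher and 2 lower, of the regulators 5 of 14 were higher and 2 lower, and of the carnitine shuttle genes 1 of 8 was higher and 2 lower.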

How the data were processed

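Total RNA of 6 mouse libraries was sequenced after mRNA library preparation, per the labels' protocols. The authors deposited read counts per gene, headed as unique reads, with the length of each gene and RPKM values, per the file headers. The counts are raw whole numbers and are what the tests used. RPKM recomputed from count, length and library total gave the deposited values of the 37 genes within a relative difference of 3.6e-15. The series and library tables differed in 0 counts, and 6 coverage columns were not used. Per the submitters' processing notes, CASAVA 1.8.2 and mm10 were used, in roles not stated. Neither the aligner, the counter, the annotation nor strand use is given in the sources used here. Even numbers made up 62.4% to 67.5% of counts from 1 to 20, against 48.8% to 50.6% of larger ones, so intervals on low counts may be too narrow. Intervals cover counting error only where they are called counting intervals.

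Counts were tested with edgeR 4.0.16 (quasi-likelihood test, TMM scaling, default expression filter, 16435 genes) in R 4.3.3, with 4 group means over all 6 libraries. The fit had 2 residual and 4.75 prior degrees of freedom, and the lone ESC and MEF libraries were assumed to vary like the iPSC lines. P-values were adjusted by Benjamini-Hochberg over all genes, with a threshold of 0.05. iPSC against ESC or MEF is the mean of the PC and control groups minus the single library. Counts of every pair of lines differed beyond sampling noise, with a chi-square per degree of freedom of at least 8.1. On simulated counts with 200 genes changed 2-fold, PC against control recovered 88% and iPSC against ESC 76.5%, but only 7% and 1.5% at 1.5-fold. The simulation gave every gene the same spread and changed only well-read genes. That spread was below the biological coefficient of variation of 0.18 fitted to the data, so these shares may overstate recovery here.

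The 37 genes and the further lists were chosen with earlier results of these data known. All 37 genes could be named. Values of every library are given for up to 12 called genes per direction and comparison, the 6 with the largest PC difference and the 6 most abundant. Alternatives were RLE size factors, DESeq2 1.42.0, no expression filter, limma 3.58.1 on log2(RPKM + 1), leaving out chromosome 11, each line in turn, and 1 group of iPSC lines. Promoters came from RefSeq on GRCm38.p6, with those of the members taken by gene ID, and gene positions are of the same build.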

Additional observations from a re-analysis of the deposited data

Results flagged for a closer look

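In 5 of the 37 genes, 1 iPSC line lay far from the other 3, measured as its gap to the nearest line divided by the range of the 4 lines, and was past the 95% critical value of Dixon's test. The line was PC iPSC 5 each time. It was the highest for Etfdh (0.974), Etfb (0.928), Acsl4 (0.915) and Acadvl (0.839), and the lowest for Acot2 (0.845). In RPKM, PC iPSC 5 was 1.72 times the mean of the other 3 lines for Acadvl, 1.29 times for Etfb, 1.28 times for Acsl4, 1.16 times for Etfdh and 0.515 times for Acot2. Chance marks about 1 in 20 such groups. Of all 14875 genes with a mean of at least 10 reads a line, 6.82% were past that value, and PC iPSC 5 was the line in 3.84%, beside 13.5% of the 37. Of the 5 genes only Acadvl lies on chromosome 11, where the line was higher as a whole.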

How the results depend on the processing

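No paired analysis was possible because the PC and control lines carry different numbers and ESC and MEF are single libraries. No member passed between PC and control iPSC under any alternative, while the whole table gave 0 to 309 calls with each line left out, the 309 without control iPSC 7. The PC minus control difference changed sign in at least 1 alternative for 22 of the 37 genes, the iPSC minus ESC difference for 8 and the iPSC minus MEF difference for 2, and 0 of these had been called. Among the 6 genes named for the PC comparison the sign changed for Acot2, to 0.10 without PC iPSC 5 (lowest -0.97 with another line out), and for Acsl5, to -0.10 without control iPSC 3 (highest 0.77). Against ESC, limma on log2(RPKM + 1) called 0 members and 11 genes of the table, and leaving out each line gave 6 to 8 members and 1781 to 2873 genes. The share of the table's calls that were higher in iPSC than in ESC was 45.2% with edgeR, 55.3% with DESeq2 and 27.3% with limma. Of ESC against MEF, 11 members were past 3-fold. Over all 37 genes, calls lost in at least 1 alternative were those of all 5 genes against ESC, with limma, and of Acsl6, Acad11 and Eci2 against MEF. Calls were gained in at least 1 alternative by Acad9, Acad10 and Acadl against ESC and by Acadvl and Hsd17b4 against MEF, and the causes were not tested. The main limits are 2 lines a group, 1 library each of ESC and MEF, and few reads for Ppara in every library and for Acsl6 and Acaa1b in MEF.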
